A study of Tachysurus ussuriensis with 12 samples.

Results

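The 24 h response of the kidney was examined in the Ussuri catfish (Tachysurus ussuriensis), a freshwater bagrid, by comparing RNA-sequencing libraries of kidney after 24 h of acute salinity stress with libraries of kidney at 0 h. Each time had 3 kidney libraries, and the same series holds 3 gill libraries of each time, so 6 of 12 libraries belong to this comparison. The labels give tissue and time only: the salinity, the age and strain of the fish, and whether the libraries of a group came from separate fish are not stated, and no kidney was labelled as kept for 24 h without the stress. A change over 24 h therefore cannot be told apart from other differences between the sampling times, and p-values measure the spread between these libraries, which may in part be technical. Levels are the authors' FPKM values (fragments assigned to a transcript, scaled to its length and to the size of the library). A transcript entered the comparison when it reached an FPKM of 1 in at least 3 of the 6 kidney libraries, which kept 60152 of 84875 assembled transcripts (70.9%) and left out 24723.

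In a freshwater fish the kidney removes water that enters across the gill as a dilute urine while its tubules take back salts, driven by the sodium pump Na+/K+-ATPase. When the outside water becomes saltier, glomerular filtration and urine flow usually fall and the tubules turn from saving ions towards saving water. The kidney of bony fish also holds blood-forming and endocrine tissue between the tubules. A change in bulk RNA of such an organ cannot separate fewer cells of a type from less RNA per cell. The files do not pair the transcript IDs with gene names, so ion transporters, water channels and cell type markers could not be looked up, and the transcripts are described by level, by library and by ID.

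Kidney 0 h replicate 2 stood apart before any comparison of times. On log2(FPKM + 1) it correlated with the other 5 kidney libraries at 0.792 to 0.815, whereas those 5 correlated with each other at 0.839 to 0.898. The median FPKM of tested transcripts was 3.24, 3.23 and 3.53 in the 24 h libraries, against 3.14, 2.11 and 3.21 in the 0 h libraries, the value of 2.11 being that of replicate 2. Transcripts at an FPKM of 1 or more numbered 57091, 57667 and 59707 at 24 h, against 56342, 47476 and 56500 at 0 h. The groups did not overlap in this number, averaging 58155 ± 1375 for the 24 h kidneys and 53439 ± 5165 for the 0 h kidneys (SD, n = 3 each). The two-sided exact permutation test gave p = 0.1, the smallest that 3 against 3 libraries allow, and most of the difference of 4716 went with replicate 2, since it was 1734 without that library. Relative to kidney 0 h replicate 1, sequencing depth read from the steps between low values was 1.12, 0.866 and 0.878 at 24 h. At 0 h it was 1, 1.02 and 1.01. Only ratios near 1 entered this reading, so it could not have shown a large difference in depth.

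Its kidney identity was read from transcripts limited to kidney, defined as an FPKM of 1 or more in all 5 other kidney libraries and under 0.1 in all 6 gill libraries. Replicate 2 had 387 of 504 such transcripts at 1 or more (76.8%). For the other kidney libraries, each read on transcripts chosen without it, the share was 93.0% to 96.5%. The 387 are the same transcripts for every library. The sets of the other 5 required 1 or more in replicate 2, which removed transcripts low there and can raise their shares. Transcripts limited to gill by the mirrored definition reached an FPKM of 1 in 8 of 877 cases in replicate 2 (0.912%), which lay within the 0.800% to 1.49% of the other kidney libraries. Replicate 2 thus held fewer of the kidney-limited transcripts, and its gill-limited transcripts were as rare as in other kidney libraries. It also had the fewest transcripts of any kind at 1 or more among the kidney libraries (47476). The part of this general drop in the lower kidney-limited share was not tested.

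A block of 368 transcripts was more than 2 log2 units higher in kidney 0 h replicate 2 than in any other kidney library, where the other 5 libraries led 1 to 36 transcripts in this way. Together the 368 held 8.61% of the summed FPKM of that library. In the 24 h libraries they held 0.298%, 0.306% and 1.40%, and in 0 h replicates 1 and 3 they held 0.276% and 0.273%. The value of 1.40% belongs to 24 h replicate 3, which was the highest of the other 5 libraries for 341 of the 368 (92.7%), whereas it was the highest of the 5 for 24.6% of all tested transcripts. The most abundant of the block had 5.57, 0.878 and 1682 FPKM at 24 h, against 8.67, 13290 and 6.10 FPKM at 0 h. The next had 44.4, 34.3 and 2314 FPKM at 24 h, against 59.5, 13066 and 52.8 FPKM at 0 h. Both were high in the same pair of libraries, 1 of each time, and low in the other 4, and both were at most 85.8 FPKM in gill. The 368 were chosen for their level in replicate 2, which widens their spread at 0 h, so calls with all libraries were unlikely in advance. None of them was called as changed between times, where 1.37% of all tested transcripts were. In the fit without replicate 2, 22 of the 368 were called, where 4.29% of all tested transcripts were.

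**Figure D1:**
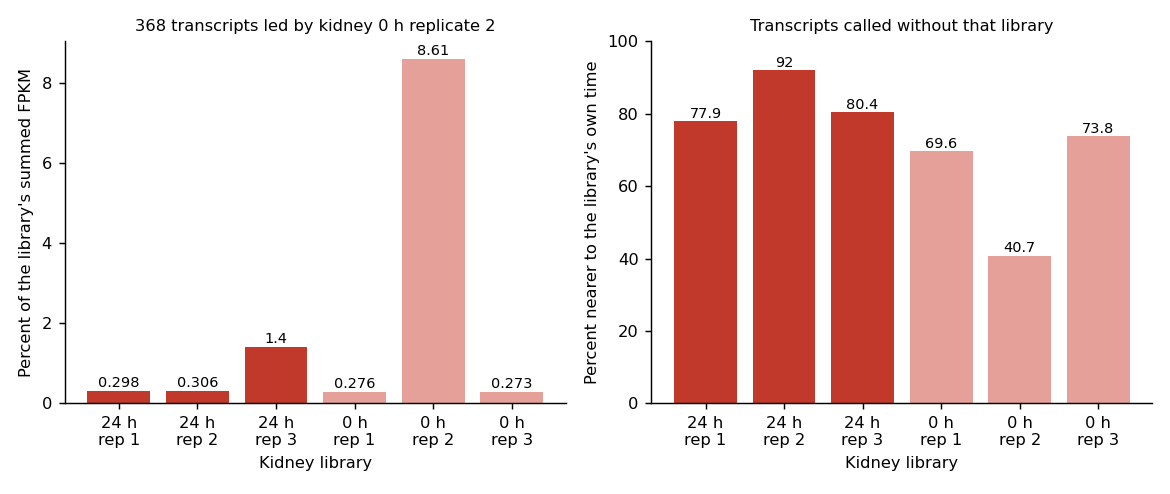
Left, percent of each kidney library's summed FPKM held by the 368 transcripts that kidney 0 h replicate 2 led; right, percent of the transcripts called in a fit without the library named below the bar whose level in that library was nearer to the mean of its own time than to the other. Kidney 0 h replicate 2 holds the highest bar on the left, at 8.61%, and the lowest on the right, at 40.7%.

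Kidney libraries of 24 h and 0 h differed in 825 transcripts, of which 620 rose (1.03% of those tested) and 205 fell (0.341%). Calls required an adjusted p (Benjamini-Hochberg) under 0.05 in limma, two-sided, with 1 model of 4 group means fitted to all 12 libraries, so that gill entered only the estimate of the spread. Of the risen transcripts 552 changed at least 2-fold, 109 at least 4-fold and 22 at least 8-fold. Of the fallen ones 180 changed at least 2-fold, 65 at least 4-fold and 13 at least 8-fold. Folds are on the log2(FPKM + 1) scale, which understates the change of low transcripts. The median change was 1.45 among those that rose and -1.59 among those that fell, while the median over all tested transcripts was 0.13. The libraries of 24 h lay wholly above those of 0 h for 8035 tested transcripts (13.4%) and wholly below them for 2349 (3.91%). All 825 called transcripts were among these, which follows in part from the call and is no separate support. With kidney 0 h replicate 2 left out the counts were 12429 above and 8676 below, where fewer libraries make such separation more frequent.

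Without kidney 0 h replicate 2 the same model called 2578 transcripts, 1587 that rose (2.64%) and 991 that fell (1.65%), and the median over all 60152 changes was 0.05. Of the 825, 760 were called in the same direction (568 rising, 192 falling) and 65 were not called, while 1818 were called only in the fit without that library. None was called in opposite directions. The changes called without it were smaller, with medians of 0.87 among rising and -1.12 among falling transcripts.

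The library labelled kidney 0 h replicate 2 lay on the 24 h side for most of the transcripts called without it. This held more for falling than for rising transcripts. The values of replicate 2 did not enter those calls, but they entered the filter on level. Whether its label is right was not tested, and results drawn from all 0 h libraries rest on that label. The 1587 rising transcripts had median FPKM of 13.6, 14.7 and 14.02 in the 24 h libraries. In 0 h replicates 1 and 3 they had 7.11 and 6.83, and in 0 h replicate 2 they had 15.2. This last median joins unlike parts, in a split that its own values entered. In the 568 that rose in both fits replicate 2 had 1.42, against 7.08, 8.87 and 7.75 at 24 h. In the 1019 called as rising only without it, replicate 2 had 27.9, against 16.95, 18.1 and 16.9 at 24 h. The 991 falling transcripts had medians of 5.03, 4.89 and 5.24 at 24 h, against 15.2 and 12.4 in 0 h replicates 1 and 3 and 7.07 in 0 h replicate 2. By single transcripts, replicate 2 was nearer to the mean of the other 0 h libraries than to the 24 h mean in 1049 of 2578 (40.7%), in 48.5% of those that rose and 28.3% of those that fell. When each of the other 5 kidney libraries was read in the same way, in the 175 to 684 transcripts called without it, it was nearer to its own time in 69.6% to 92.0%. These sets differ in size and members, and the fits behind the other 5 kept replicate 2, so the percentages are a description. Over all tested transcripts, replicate 2 was below the mean of the other 0 h libraries for 71.7%, with a median deviation of -0.42 on the log2 scale.

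**Figure D2:**
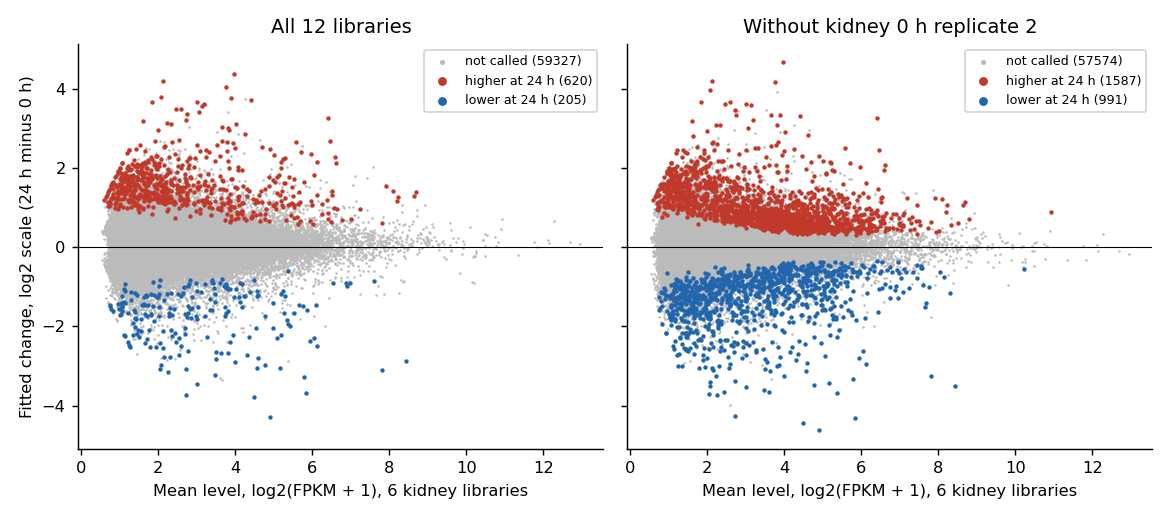
Fitted change between kidney 24 h and 0 h (log2 scale) against the mean level of each of 60152 transcripts, with all 12 libraries (left) and without kidney 0 h replicate 2 (right); red points rose, blue points fell and grey points were not called. Without that library many more transcripts with changes under 1 log2 unit are called, on both sides of the line at 0.

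The 620 transcripts that rose were mostly low at 0 h. Their median FPKM was 6.75, 8.41 and 7.64 in the 24 h libraries, against 1.94, 1.30 and 1.87 in the 0 h libraries. The 0 h medians lay below the 2.11 to 3.21 of all tested transcripts, which the choice of rising transcripts favours. The 1587 that rose in the fit without kidney 0 h replicate 2 did not share this. Their medians were 7.11 and 6.83 in 0 h replicates 1 and 3, where all tested transcripts had 3.14 and 3.21. Summed over the 620, FPKM was 14972, 17875 and 14520 at 24 h, against 6224, 4423 and 6007 at 0 h. Replicate 2 of 24 h was the highest of its group for 293 of them and replicate 1 of 0 h was the highest of its group for 319. Over all 60152 tested transcripts these libraries were the highest of their groups for 18579 and 22938. Some had entered the test through the 24 h libraries alone. At 1 or more in all 24 h libraries and under 1 in all 0 h libraries were 1042 tested transcripts. Of these, 180 were among the 620, a count that this selection favours. Over all tested transcripts 1.03% were called as rising.

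The 205 transcripts that fell were well expressed at 0 h, which their choice for a fall favours. Their median FPKM was 2.90, 2.59 and 3.03 at 24 h, against 14.1, 9.58 and 10.2 at 0 h. Summed FPKM was 1780, 1826 and 1882 at 24 h, against 12471, 5300 and 6437 at 0 h. The 24 h libraries lay close together, while 0 h replicate 1 stood highest: it led its group for 131 of the 205 (63.9%, where it led 38.1% of all tested transcripts), and without it 589 transcripts rose and 95 fell, against 524 and 132 without 0 h replicate 3. In the other direction from the rising set, 276 tested transcripts were at 1 or more in all 0 h libraries and under 1 in all 24 h libraries. Of these, 43 were among the 205, with the same selection, where 0.341% of all tested transcripts were called as falling.

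A pair of transcripts from each direction carries the extremes. They were taken as the largest fitted changes among transcripts called with and without kidney 0 h replicate 2, with groups that do not overlap and a mean FPKM of at least 10 in the higher group; 242 rising and 112 falling transcripts met these conditions. TRINITY_DN35749_c0_g1_i1_4 had 116.5, 62.1 and 48.1 FPKM at 24 h, against 0.594, 4.17 and 3.95 FPKM at 0 h. All 24 h libraries were more than 10-fold above the highest 0 h library. It averaged 75.5 ± 36.2 FPKM in 24 h kidneys and 2.90 ± 2.00 FPKM in 0 h kidneys (SD, n = 3 each), a log2 change of 4.37 (SE 0.43; limma adjusted p = 0.0013), and 4.67 without kidney 0 h replicate 2 (limma adjusted p = 0.00279). In gill it was at most 0.111 FPKM in any library.

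TRINITY_DN20357_c0_g1_i1_1 had 15.8, 20.6 and 16.7 FPKM at 24 h, against 0.0432, 0 and 2.63e-06 FPKM at 0 h. The 24 h libraries lay close together and the 0 h libraries were at or next to 0, so no fold is given, and the fitted log2 change of 4.20 (SE 0.75; limma adjusted p = 0.0243) depends on the pseudocount. It was 7.29 with a pseudocount of 0.1, where the call was lost (limma adjusted p = 0.0822). It passed the filter through the 24 h libraries alone, so its selection already required a difference and the p-value is no separate support. The call was also lost without 0 h replicate 1 (limma adjusted p = 0.0514) or 3 (0.0535), and without 24 h replicate 1 (0.0610), 2 (0.0976) or 3 (0.0657). Gill held it in single libraries only, with 3.49 FPKM in 24 h replicate 2 and 7.30 FPKM in 0 h replicate 1 and at most 0.000616 FPKM in the other 4. The highest gill value was thus at 0 h.

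TRINITY_DN27698_c0_g1_i4_1 had 7.95, 3.30 and 6.83 FPKM at 24 h, against 309, 80.2 and 87.6 FPKM at 0 h. It averaged 6.03 ± 2.42 FPKM in 24 h kidneys and 159 ± 130 FPKM in 0 h kidneys (SD, n = 3 each), a log2 change of -4.28 (SE 0.55; limma adjusted p = 0.00552). The wide spread at 0 h came from replicate 1, and the change was -3.66 without that library (limma adjusted p = 0.0115). TRINITY_DN28071_c1_g1_i1_3 had 4.04, 6.01 and 5.10 FPKM at 24 h, against 243, 33.1 and 68.1 FPKM at 0 h. Replicate 1 was again the highest 0 h library. Its log2 change was -3.79 (SE 0.65; limma adjusted p = 0.0199), -3.02 without 0 h replicate 1 and -4.44 without 0 h replicate 2. It was not called without 24 h replicate 1 (limma adjusted p = 0.0615), 2 (0.0736) or 3 (0.0580).

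In gill both falling transcripts were also lower on average at 24 h, but not called: the first had a log2 change of -1.49 (limma adjusted p = 0.4) and the second of -1.35 (limma adjusted p = 0.584). Tested directly, the kidney change minus the gill change was 4.34 (limma adjusted p = 0.0636) for TRINITY_DN35749_c0_g1_i1_4, 4.49 (0.236) for TRINITY_DN20357_c0_g1_i1_1, -2.79 (0.348) for TRINITY_DN27698_c0_g1_i4_1 and -2.45 (0.515) for TRINITY_DN28071_c1_g1_i1_3. None of the 60152 transcripts (0.00%) was called by limma in this test, and 4780 had an unadjusted p under 0.05. Kidney and gill libraries of 24 h with the same replicate number deviated together, with correlations of 0.145, 0.120 and 0.121. For those of 0 h the correlations were 0.108, -0.00448 and 0.0428. For replicate 3 of 24 h the numbers in the library names differ between kidney and gill. A fit with libraries of the same time and replicate number as a block was added after the data were seen. In it limma again called 0, with 4702 unadjusted p-values under 0.05 and a smallest adjusted p of 0.0739. A call in kidney beside none in gill is therefore not shown to be a difference between the tissues.

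**Figure D3:**
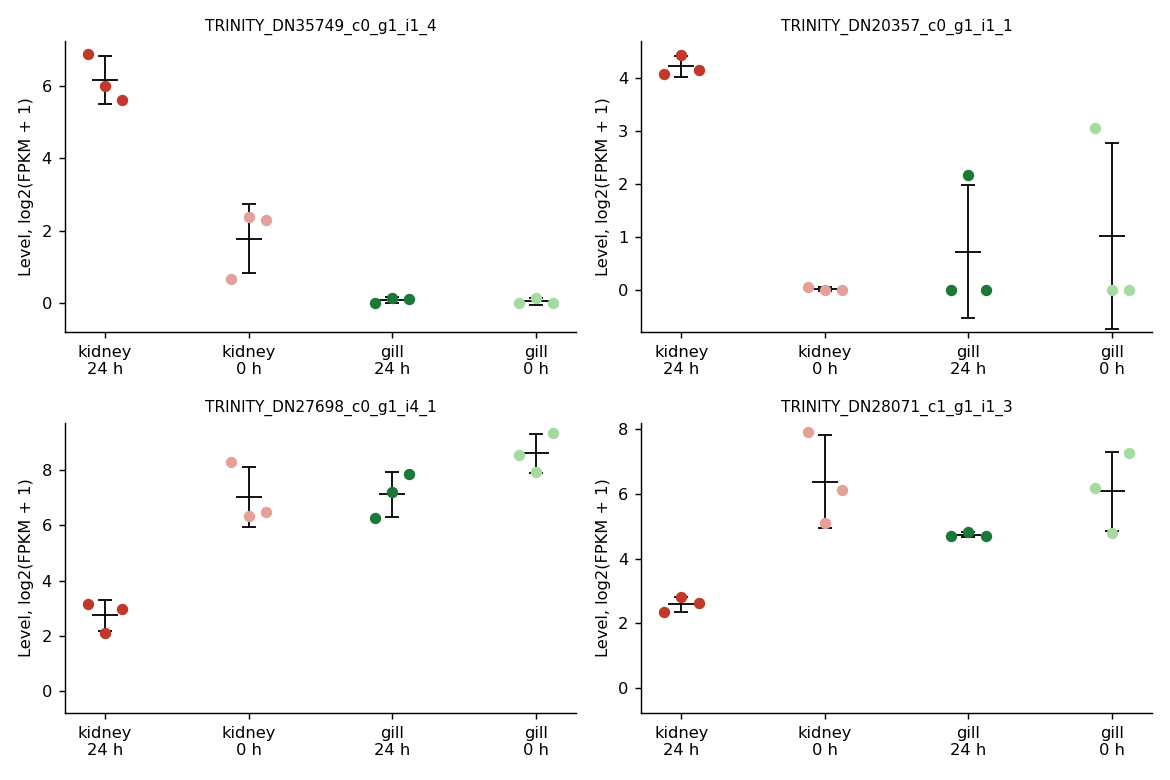
Level of the 4 named transcripts in every library on the log2(FPKM + 1) scale, with kidney 24 h, kidney 0 h, gill 24 h and gill 0 h from left to right; points are libraries, and bars are the mean and SD of 3. In the upper panels the kidney 24 h libraries lie above those of 0 h. In the lower panels they lie lower, and kidney 0 h replicate 1, the leftmost point of its group, is the highest of the 0 h points in both lower panels.

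By mean level in kidney, the share of transcripts called was higher in more abundant classes. It was 0.877% under an FPKM of 2 (141 rising, 23 falling), 1.14% from 2 to 5 (185 and 53), 1.52% from 5 to 10 (97 and 42), 2.17% from 10 to 50 (152 and 64) and 4.46% at 50 or more (45 and 23). Without kidney 0 h replicate 2 the share was 1.52% in the lowest class and 16.6% in the highest. Among the 100 most abundant transcripts, each with a mean FPKM of at least 384.5, 2 rose and 1 fell, and 93 had a fitted change under 1 log2 unit in either direction. The middle 50% of their changes lay between -0.01 and 0.27.

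Few transcripts were listed at 0 in every library of a time and detected throughout the other, and their levels were low. Listed at 0 in all 0 h libraries and at 1 or more in all 24 h libraries were 38 transcripts, with mean FPKM at 24 h of 1.29 to 11.98 (median 2.22). All passed the filter through the 24 h libraries alone, so calls among them are not counted as a result, and 2 were listed at 0 in all gill libraries too. In the opposite direction 16 transcripts were listed at 0 in all 24 h libraries and at 1 or more in all 0 h libraries, with mean FPKM at 0 h of 1.45 to 5.23 (median 2.67). The values behind such zeros are fractional estimates, so a listed 0 gives no limit in reads.

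With all libraries, rising transcripts were most numerous among IDs that end in 1. Each ID has the form of the assembler Trinity and closes with 1, 2, 3 or 4, a number that no source used here explains. Of 17819 tested transcripts ending in 1, 361 rose and 28 fell (2.18% called). Of 10318 ending in 2, 70 rose and 38 fell (1.05%), of 18060 ending in 3, 115 rose and 86 fell (1.11%), and of 13955 ending in 4, 74 rose and 53 fell (0.910%). Without kidney 0 h replicate 2 rising transcripts were still most numerous for ending 1. The share called in either direction was no longer highest there. For ending 1, 636 rose and 134 fell (4.32%), for 2, 244 and 206 (4.36%), for 3, 493 and 382 (4.85%), and for 4, 214 and 269 (3.46%). The tested transcripts ending in 1 as a whole had a median FPKM of 2.84, 3.46 and 3.76 at 24 h, against 2.53, 1.62 and 2.67 at 0 h, and their median change was 0.33. For the other endings the median change was 0.09, 0.04 and 0.05. Without kidney 0 h replicate 2 the medians for endings 1 to 4 were 0.21, 0.01, 0.01 and -0.07. Of the 38 transcripts that were listed at 0 only at 0 h, 29 ended in 1, and of the 16 listed at 0 only at 24 h none did. Among all 60152 tested transcripts 17819 ended in 1. The 38 and the 16 passed the filter through the libraries of 1 time alone, so these counts are a description.

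The excess of rising over falling transcripts depended on how libraries were scaled. As deposited, 620 rose and 205 fell, and with equal totals the excess stayed, with 621 rising and 219 falling. With median-ratio scaling 455 rose and 477 fell, with the median change of all transcripts at -0.03, and with quantile normalization 547 rose and 344 fell, with the median at 0.01. When each ID ending was centred in every library, a setting chosen after the data were seen, 320 rose and 406 fell, and those ending in 1 were 114 rising and 127 falling. The part of the 0.13 median shift of the deposited values in the excess was not tested. Under all of these scalings 266 rising and 167 falling transcripts kept their call: each was called in its direction as deposited, under median-ratio, quantile, equal-total and centred scaling, and without kidney 0 h replicate 2. They comprised 114, 37, 75 and 40 rising and 23, 34, 75 and 35 falling transcripts of endings 1 to 4. How many of these calls held differed between other models. With the replicate number as a block 207 rising and 102 falling ones were also called. Without kidney 24 h replicates 1, 2 and 3 the counts were 181 and 56, 107 and 40, and 176 and 66. They were 39 and 4 when the number in the library names was a block, and 7 and 3 with the kidney groups alone.

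**Figure D4:**
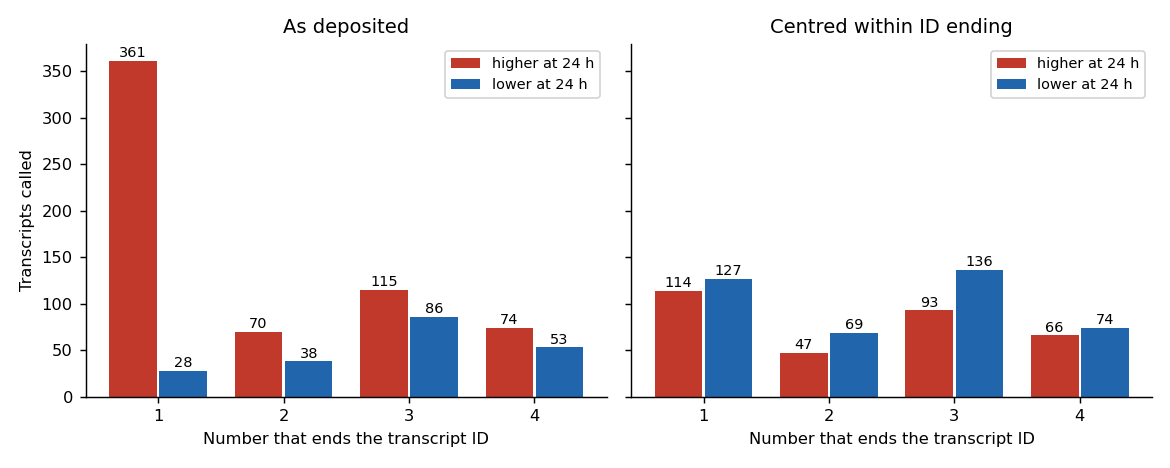
Transcripts that rose (red) or fell (blue) in kidney at 24 h, by the number that ends their ID, as deposited (left) and with each ending centred in every library (right). The 361 rising transcripts ending in 1 become 114 after centring, beside 127 falling ones.

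The 266 rising transcripts called under every scaling had median FPKM of 9.39, 11.5 and 10.6 at 24 h, against 2.47, 1.32 and 2.19 at 0 h. The 167 falling transcripts had 2.45, 2.09 and 2.39 at 24 h, against 14.3, 7.81 and 10.6 at 0 h. Their median changes were 1.76 and -1.67. In gill, whose libraries entered these changes only through the spread, the 266 were at medians of 2.48, 3.23 and 2.81 FPKM at 24 h and 1.38, 1.24 and 1.30 FPKM at 0 h. The 167 were at 6.70, 7.45 and 7.96 FPKM at 24 h and 18.0, 11.98 and 16.5 FPKM at 0 h. The fitted gill change had the kidney's sign in 208 of 266 rising and 127 of 167 falling transcripts, while it was above 0 in 53.6% of all tested transcripts. The part in this of the shared deviation of 24 h libraries with the same replicate number was not tested.

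Called transcripts were more often under 1 FPKM in all 6 gill libraries than tested transcripts in general, a description with no test. Gill libraries entered the estimate of each transcript's spread, and transcripts this low can vary little between them on the log2(FPKM + 1) scale. The fit can therefore favour calls of such transcripts, and the part of this in the excess was not tested. Of the 620 transcripts that rose in kidney, 24.4% were under 1 FPKM in all 6 gill libraries, and of the 205 that fell 19.0% were, where 9.22% of all tested transcripts were. At 1 or more in all 6 gill libraries were 49.0% of the rising and 68.8% of the falling transcripts, against 56.2% of all tested. Without kidney 0 h replicate 2 the excess under 1 FPKM was smaller, at 11.5% of the 1587 rising and 15.5% of the 991 falling transcripts. At 1 or more in all 6 were then 76.5% of the rising and 74.2% of the falling ones, both above all tested. Of all 60152 tested transcripts the gill contrast called 95 as rising and 69 as falling, and 34 of these 95 and 21 of these 69 were called in the same direction in kidney. Over all tested transcripts the kidney contrast called 1.03% as rising and 0.341% as falling. Both contrasts used the same estimate of each transcript's spread, so the overlap is not independent agreement.

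The number of calls rested on the gill libraries' part in the spread and on single libraries. With the kidney groups fitted alone, which leaves 4 residual degrees of freedom, limma called 10 transcripts (7 rising, 3 falling), with 6261 unadjusted p-values under 0.05. TRINITY_DN20357_c0_g1_i1_1 was the named transcript still called (limma adjusted p = 0.00992). It passed the filter through the 24 h libraries alone, so this p-value is no separate support. With the kidney groups alone and without kidney 0 h replicate 2 limma called 0, with 9627 unadjusted p-values under 0.05. In the 12-library model the count was 380, 175 and 378 without kidney 24 h replicates 1, 2 and 3, and 175 was the lowest count of any library left out. Leaving out a gill library gave 478, 486 and 477 for the 24 h replicates 1, 2 and 3, and 451, 551 and 517 for the 0 h replicates in that order.

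**Figure D5:**
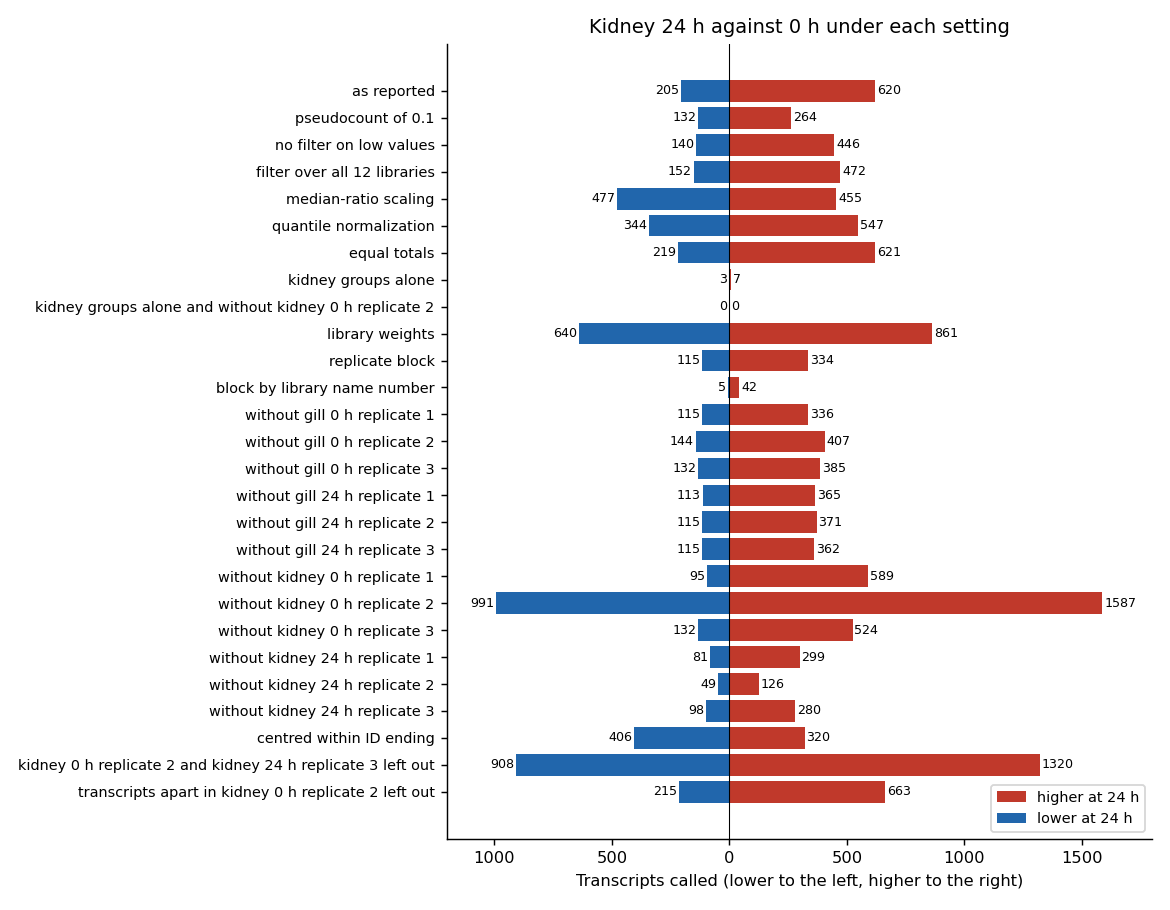
Transcripts called lower (blue, to the left) and higher (red, to the right) in kidney at 24 h under each setting, with the count beside each bar. The count as reported, 620 and 205, lies between 0 with the kidney groups alone and without kidney 0 h replicate 2, and 1587 and 991 without that library in the model of both tissues.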

How the data were processed

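Per the file headers, the deposited values are FPKM, with a column for each library and a row for each of 84875 transcripts. Reads were trimmed with Trimmomatic according to the submitters' processing notes, and the assembler's settings, the aligner and the counter are named in none of the sources used here. Libraries were matched to columns by the library names in the labels and grouped by tissue and time. FPKM values are not counts, so no count model was used, and read totals are unknown; relative depth was read as the most frequent ratio of low values between libraries. Values such as 2.63e-06 show that they are estimates. The precision of a single value is unknown.

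Tests used limma 3.58.1 (R 4.3.3; lmFit, then contrasts.fit and eBayes with trend) on log2(FPKM + 1), in 1 model of 4 group means over 12 libraries (8 residual degrees of freedom), with p-values adjusted over all 60152 tested transcripts. The fit was checked on simulated data. A sum over the transcripts of each assembled gene and a test of transcript shares within genes were also designed. Assembled genes were kept apart by the number that ends the ID. Rows that share the Trinity gene part of the ID but differ in that number were not joined. Under this definition each of the 84875 rows was its own assembled gene. The first therefore equals the transcript test and the second had nothing to test. The named transcripts follow a rule set out with their values; at most 2 of each direction are named because the IDs have no gene names, and marker lists could not be matched. The comparison, its sets and tests were chosen with earlier results of these data known. Centring within ID endings, leaving out both libraries high in the block of 368, leaving out the transcripts that stand apart in kidney 0 h replicate 2, and the kidney minus gill test with and without a block were added after the data were seen.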

Additional observations from a re-analysis of the deposited data

How the results depend on the processing

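The count of 825 called transcripts moved to 396 with a pseudocount of 0.1, 10 with the kidney groups alone, 0 with the kidney groups alone and without kidney 0 h replicate 2, 1501 with library weights (861 rising, 640 falling), and 2228 with kidney 0 h replicate 2 and kidney 24 h replicate 3 both left out. Each library left out in turn gave counts of 175 to 2578. The replicate block gave 449, and blocking on the number in the library names gave 47 (42 rising, 5 falling). Kidney libraries with the same replicate number at 24 h and 0 h deviated from their group means with correlations of 0.0761, -0.0399 and -0.0302. For replicate 3 the numbers in the library names differ between the times. What else these libraries share is not stated. Smaller models and fewer libraries enter these counts; otherwise the cause was not tested. Without a filter on low values 586 were called, and with the filter over all 12 libraries 624. Leaving out the transcripts apart in kidney 0 h replicate 2 gave 878. Median-ratio scaling gave 932, quantile normalization 891, equal totals 840 and centring within ID endings 726, of which 653, 690, 803 and 487 were among the 825 in the same direction.

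The 4 named transcripts kept their direction in all 26 alternatives, though for many of these the direction was fixed in advance. Other filters, a gill library left out, the replicate block and the kidney groups alone left the fitted kidney change as it was. Leaving out the transcripts apart in kidney 0 h replicate 2 did so too. A call without that library was a condition of naming. TRINITY_DN35749_c0_g1_i1_4 was called in 24 (limma adjusted p from 0.000971 to 0.0907), TRINITY_DN20357_c0_g1_i1_1 in 17 (0.00676 to 0.153), TRINITY_DN27698_c0_g1_i4_1 in 23 (0.00405 to 0.0907) and TRINITY_DN28071_c1_g1_i1_3 in 20 (0.00748 to 0.119). The absolute depth is unknown, so no limit can be given for transcripts listed at 0.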

Other observations

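The 368 transcripts led by kidney 0 h replicate 2 were unevenly spread over the ID numbers: 41 ended in 1, 41 in 2, 251 in 3 and 35 in 4. Their median FPKM was 2.85, 3.00 and 6.61 in the 24 h libraries, against 2.55, 38.8 and 2.45 at 0 h, and 335 of them reached an FPKM of 1 in at least 1 gill library. Read the other way, 27 transcripts were more than 2 log2 units higher in kidney 24 h replicate 3 than in the 4 libraries other than these, and kidney 0 h replicate 2 was above those 4 by the same margin in 19 of the 27, where it was in 1.12% of all tested transcripts. The origin of these transcripts was not tested, since the IDs have no gene names.

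At an FPKM of 10 or more in 1 library and listed at 0 in another of the same group were 29 transcripts at 24 h and 62 at 0 h.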
